A study of Rattus norvegicus with 18 samples.

Results

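The genes described here encode the constitutive proteasome and its regulators, measured in the blood of 2 rat strains given procainamide. They are the 43 genes, read by 49 probes, whose RefSeq symbol starts with Psma, Psmb, Psmc, Psmd, Psme, Psmf or Psmg, without the immunoproteasome subunits Psmb8, Psmb9 and Psmb10, of 13616 named genes tested on the array. All 43 passed the filter on dim probes, and the probe used for each was well above background on all 18 arrays. RefSeq lists 51 protein-coding symbols of this form in the rat. The 8 for which no probe was matched are Psmb11, Psmb3l1, Psmb3l2, Psmb6l1, Psmd11, Psmg1, Psmg3 and Psmg4l1. Psmc3ip and Psme3ip1 share the prefix by name, as partners of proteasome proteins, and are not themselves proteasome subunits.

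The proteasome is the large protease that degrades ubiquitin-tagged proteins in every nucleated cell. Its 20S core is a barrel of 4 stacked rings, in which the alpha subunits form the gate and 3 of the beta subunits, encoded by Psmb5, Psmb6 and Psmb7, cut the chain. Caps bind to the ends of the barrel: the 19S particle, which recognises ubiquitin and unfolds the substrate with a ring of ATPases, or activators such as PA28, which opens the gate without ubiquitin. In immune cells interferon gamma is known to induce PA28 and the immunoproteasome subunits, which replace the 3 catalytic subunits and change the peptides made for MHC class I.

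Brown Norway (BN) rats are inbred and Sprague Dawley (SD) rats outbred; all animals were male. Each BN group has 4 arrays and each SD group 5. Control rats received sterile water and treated rats procainamide, an antiarrhythmic drug that can cause lupus-like autoimmunity, at 40 mg/kg, and blood was drawn from the venous sinus of the eye when treatment ended. The study compared rat strains in how they respond to this drug. Lewis rats, which the design text names as well, are not analysed here. Each array holds the sample in Cy5 and a reference in Cy3, by the labels control replicate 1 of the same strain, so values are log2 of Cy5 over Cy3. Separate animals are not named for the arrays, and p-values therefore measure the spread between these samples, which may be technical.

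Of 65 tested markers of 8 blood cell classes, 63 were well above background on all 18 arrays. Markers of connective, muscle and gland tissue were present too. The median Cy5 spot signal ranged from 997 to 3187, and the share of probes well above background from 73.4% to 87.1%. Precision is limited by how many arrays there are. The BN controls lay on slide 2 and the BN procainamide arrays on slide 3, scanned on different days, so slide and group cannot be told apart in BN. A scan-day term can be estimated only from the SD procainamide group, which has 3 arrays on slide 1 and 2 on slide 2. The arrays of control replicate 1 would, by the labels, set an RNA against itself, yet their log2 ratios spread over probes with an SD of 0.409 in BN and 0.253 in SD, where the other controls had 0.334 to 0.459 and 0.205 to 0.285. Results are therefore also given without these arrays. In whole blood, fewer cells of a type and less RNA per cell cannot be told apart.

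The first comparison asked which proteasome genes differed between treated and control BN rats. In BN blood 8 of the 43 genes rose and none fell. The PA28 beta gene Psme2 rose 2.31-fold, its partner Psme1 1.41-fold, the ATPase gene Psmc6 1.43-fold and the core subunit gene Psmb2 1.37-fold. Psmf1, which encodes the 20S inhibitor PI31, rose 1.44-fold. These folds are of Cy5 over Cy3, and Psme1 was at -0.03 in Cy5 alone, not called. Genes of the 19S cap other than Psmc6 rose less: Psmd2 1.27-fold, Psmd12 1.26-fold and Psmd6 1.20-fold. Without BN control 1 the same genes but Psmd6 were called. All calls are by limma with Benjamini-Hochberg adjustment over all probes at 0.05.

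The share called higher was 18.6%, where 8.99% of all genes were called higher, and none was called lower, where 13.8% of all genes were. By limma 15 members had an unadjusted p under 0.05, and the share of all genes at that level was not counted. Every treated array lay above every control array in 9 members, where 8.18% of all genes showed this, and below in none, where 11.8% did. The median difference over the 43 members was 0.10 log2 and over all genes -0.02. In Cy5 alone 12 members were called higher and 2 lower in BN, where 20.7% and 16.3% of all genes were. With scan day as a term 1 member, Psme2, was called in BN, where 0.455% of all genes were called higher. With array brightness as a term it was again 1, Psme2, against 1.11% of all genes. Without BN control 4 the members called higher numbered 5, the share of all genes in that fit not being given here. With median centring in place of loess the members called higher numbered 13, where 14.1% of all genes were.

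In SD blood 3 members rose and none fell. Psme2 rose 1.73-fold, Psme1 1.47-fold and Psmg4, an assembly chaperone gene of the 20S core, 1.24-fold. Without SD control 1 Psme1 and Psme2 were called and Psmg4 was not. The share called was 6.98%, where 1.42% of all genes were called higher and 1.76% lower. By limma 14 members had an unadjusted p under 0.05, again without a share of all genes to set beside it. The 5 members in which every treated array lay above every control array were Psme1, Psme2, Psmf1, Psmg4 and Psmc3ip; 4.38% of all genes showed this, and 4.54% the opposite, as no member did. The median difference was 0.10 over the members and -0.01 over all genes.

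**Figure D1:**
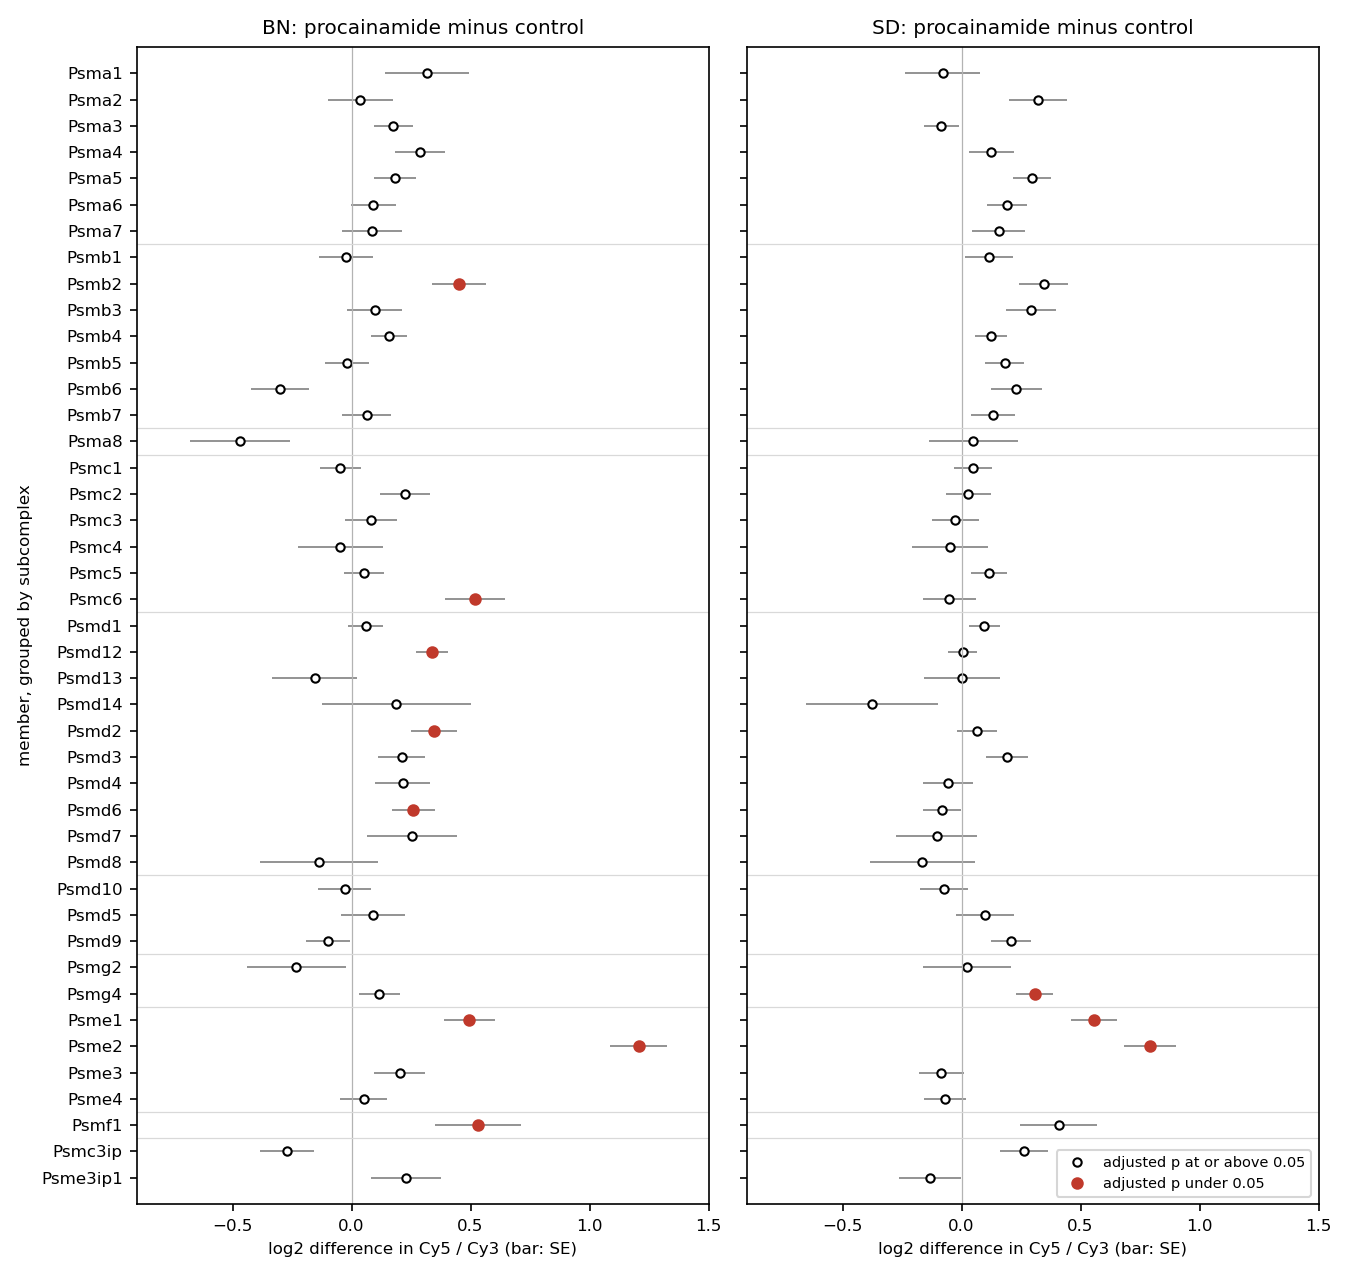
Log2 difference in Cy5 over Cy3 between procainamide and control arrays for each of the 43 genes, in BN (left, 4 against 4 arrays) and SD (right, 5 against 5). Points are limma estimates and bars standard errors; filled points passed the adjusted threshold. Psme2 and Psme1 are filled in both panels, and horizontal lines separate the subcomplexes.

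Among the activators, the Cy5 over Cy3 ratios of both genes of the PA28 alpha-beta ring rose in both strains, that of Psme1 in BN through Cy3 alone. The ratios of Psme3 (PA28 gamma, a nuclear homologue) and Psme4 (PA200, a large nuclear activator) were not called in either, although Psme3 was called higher in BN in Cy5 alone. Psme2 log2 ratios were 0.10, 0.24, -0.05 and 0.09 on the BN control arrays and 1.14, 1.52, 1.31 and 1.23 on the BN procainamide arrays. All treated BN arrays lay well above all controls. In SD the Psme2 ratios were 0.13, 0.05, 0.49, 0.29 and 0.26 in controls and 0.87, 1.1, 1.34, 0.84 and 1.03 after procainamide. There too the groups were separate, SD control 3 being the highest control. The Psme2 difference was 1.21 ± 0.12 (SE) in BN (limma adjusted p = 5.85e-06) and 0.79 ± 0.11 in SD (limma adjusted p = 0.00130). The difference between the strains' responses, 0.41 ± 0.16, did not pass (limma adjusted p = 0.109). It passed in Cy5 alone (0.28, limma adjusted p = 0.0277) and without SD procainamide 3 (0.49, 0.0429 in limma), and was 0.06 with median centring (limma adjusted p = 0.844).

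Psme1 ratios were 0.30, 0.14, 0.21 and 0.19 on the BN control arrays and 0.59, 0.73, 0.52 and 0.99 on the BN procainamide arrays. In SD they were -0.01, -0.09, 0.22, 0.07 and 0.03 in controls and 0.59, 0.59, 0.66, 0.36 and 0.81 after procainamide. In neither strain did the groups overlap. The Psme1 difference was 0.49 ± 0.11 in BN (limma adjusted p = 0.00385) and 0.56 ± 0.10 in SD (limma adjusted p = 0.00581), and the strains' responses differed by -0.06 ± 0.15 (limma adjusted p = 0.83). In Cy5 alone the Psme1 response was lower in BN than in SD (-0.39, limma adjusted p = 0.0239), and with median centring the difference was -0.44 (limma adjusted p = 0.0675). With scan day as a term Psme2 stayed called in both strains (1.03 in BN, limma adjusted p = 0.0186; 0.86 in SD, 0.00542). Psme1 kept its call with scan day in SD (0.57, limma adjusted p = 0.0268) but not in BN (0.47, 0.289). Within slide 1, which holds 5 SD control and 3 SD procainamide arrays, Psme2 was 0.86 and Psme1 0.57 higher (limma adjusted p = 0.0270 and 0.0269). These sizes equal the SD ones with scan day because both rest on the same arrays, so they are not a separate check. The scan-day term applied to BN comes from the SD procainamide arrays alone.

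**Figure D2:**
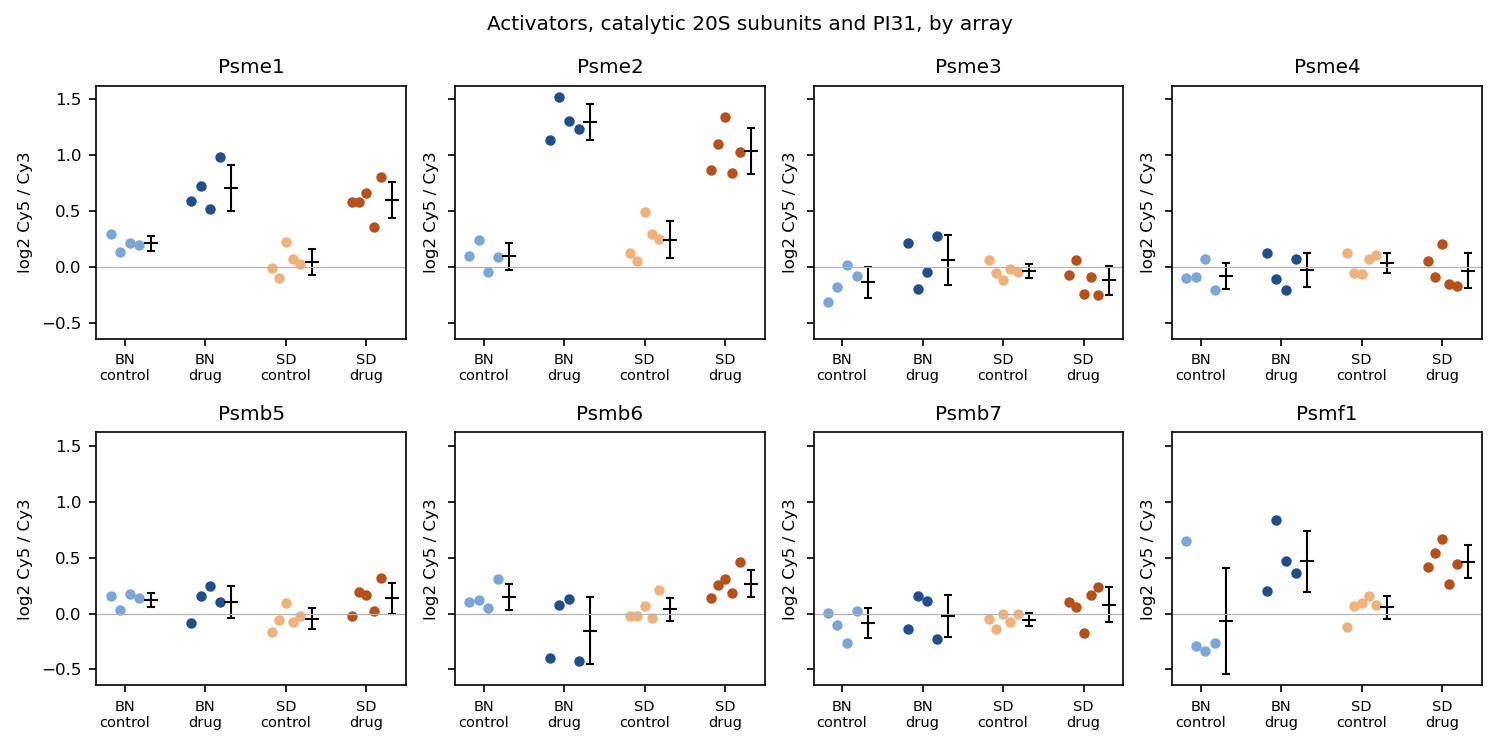
Log2 Cy5 over Cy3 on each array for the activator genes Psme1 to Psme4, the catalytic subunit genes Psmb5 to Psmb7 and the PI31 gene Psmf1; drug means procainamide. Points are arrays in replicate order and the black mark with its bar is the group mean with SD (n = 4 per BN group, 5 per SD group). Psme2 and Psme1 separate by treatment in both strains, while Psme3, Psme4, Psmb5 and Psmb7 overlap.

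The 2 channels of the PA28 genes did not carry the difference alike. For Psme1 in BN, Cy5 alone was 15.86, 15.78, 15.83 and 15.88 on control arrays and 15.81, 15.86, 15.83 and 15.74 on treated arrays, a difference of -0.03 (limma adjusted p = 0.846). Cy3 of Psme1, by the labels the same reference RNA on all BN arrays, was 15.57 to 15.68 on control arrays and 14.75 to 15.32 on treated arrays. The ratio of Psme1 in BN thus differed through the reference channel, which was 0.52 lower on the treated arrays.

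For Psme2 both channels moved. Its Cy5 alone was 0.53 higher on treated BN arrays (limma adjusted p = 4.30e-05) and 0.25 higher on treated SD arrays (0.0361), while its Cy3 was 0.67 and 0.54 lower, with no overlap of the arrays in either channel. Psme1 in SD had Cy5 0.36 higher (limma adjusted p = 0.0246) and Cy3 0.19 lower, the Cy3 ranges overlapping. With Cy5 quantile-normalized without loess, a setting added after these values were seen, Psme2 was at 0.23 in SD (limma adjusted p = 0.0753) and Psme1 at -0.07 in BN (0.547). In that setting the responses of the strains differed in Psme1 (-0.42, limma adjusted p = 0.0127) and in Psme2 (0.29, 0.0408). Over the 1224 genes called higher in BN the median Cy3 difference was 0.02, and over the 194 in SD it was -0.11. The part of the reference channel in the PA28 results was not tested further.

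**Figure D3:**
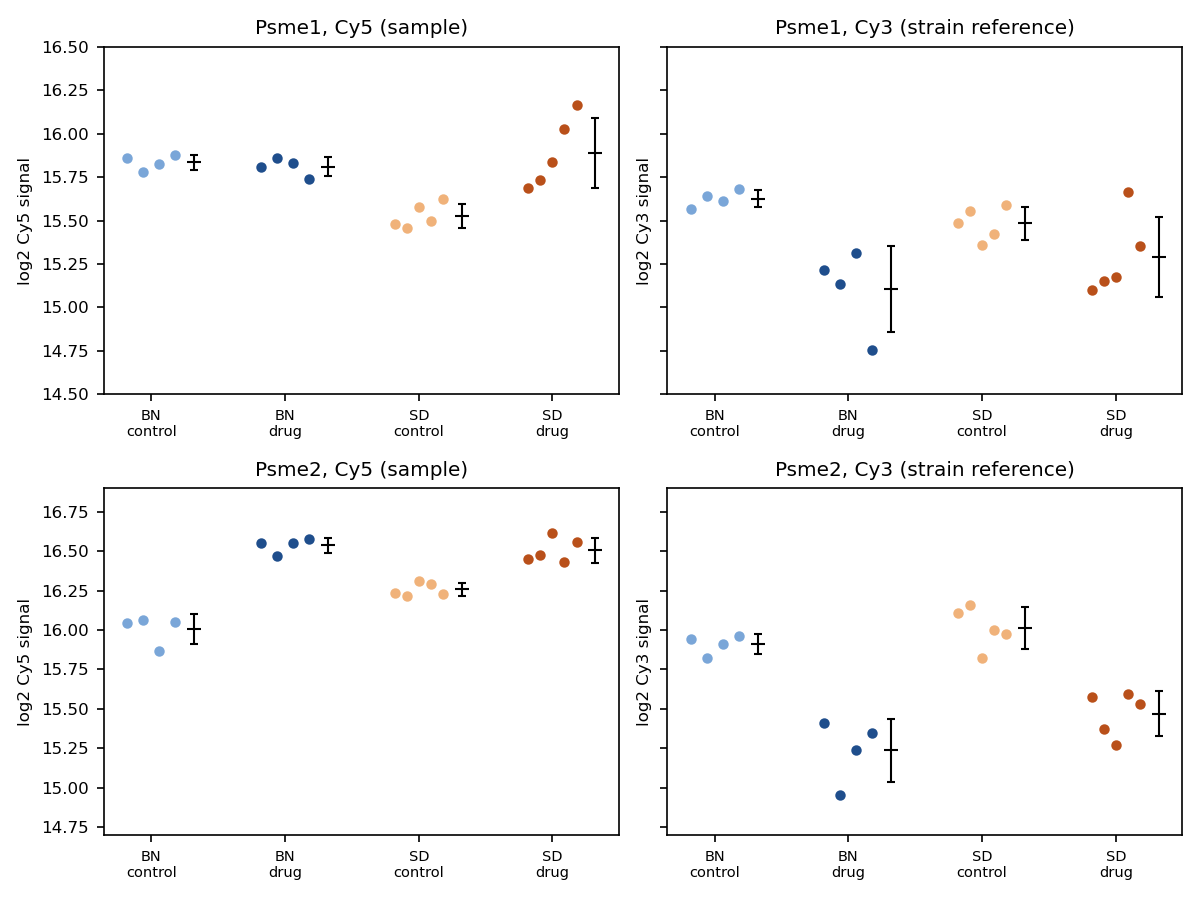
Log2 signal of Psme1 (top) and Psme2 (bottom) in Cy5, the sample (left), and Cy3, the strain reference (right), after loess and Aquantile normalization; points are arrays, the black mark is the mean with SD, and drug means procainamide. Psme1 Cy5 overlaps between the BN groups, whereas Cy3 of both genes is lower on the BN procainamide arrays; the y axes do not start at 0.

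The promoters of these 2 genes are shown because both ratios were called in both strains. Each is the stretch from 120 bases before to the RefSeq gene start, 5′ to 3′, from the rat GRCr8 assembly, at chr15:33052752-33052871 (minus strand) for Psme2 and chr15:33038851-33038970 (plus strand) for Psme1. Capitals mark a match to the interferon-stimulated response element, searched on both strands as GAAA, any 2 bases and GAAA again.
Psme2: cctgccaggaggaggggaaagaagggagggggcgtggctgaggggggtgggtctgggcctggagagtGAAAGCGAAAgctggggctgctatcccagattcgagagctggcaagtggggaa
Psme1: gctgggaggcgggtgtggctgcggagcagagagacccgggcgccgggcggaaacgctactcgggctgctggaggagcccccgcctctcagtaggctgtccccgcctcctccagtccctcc
Psme2 has the match GAAAGCGAAA from 53 to 44 bases before the gene start, and Psme1 has no match in the 250 bases searched. Of 33465 rat promoters 3.41% hold a match in those 250 bases. Among the 39 members with a promoter entry, 4 (10.3%) hold one, those of Psma4, Psmb3, Psmd7 and Psme2. The other 3 were not called in either strain. Of the immunoproteasome genes, the promoter of Psmb10 holds 2 matches and that of Psmb8 holds none. For Psmb9 no match was found, and whether it has a promoter entry was not recorded. A match is a description of the letters and not evidence that a factor binds. RefSeq's rat genome also lists 3 further copies or pseudogenes named after Psme1, 3 after Psme2 and 10 after Psmb3; cross-hybridisation was not tested.

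The Psme3 ratio was not called in either strain. It was called in BN in Cy5 alone (0.26, limma adjusted p = 0.0177), in quantile-normalized Cy5 (0.28, 0.0153) and with median centring (0.44, 0.0228). In both Cy5 settings Psme1 was not called in BN. The Psme3 ratios were -0.31, -0.18, 0.02 and -0.08 on BN control arrays and 0.21, -0.19, -0.04 and 0.28 on BN procainamide arrays, a difference of 0.20 ± 0.11 (limma adjusted p = 0.192). In SD they were 0.06, -0.05, -0.11, -0.02 and -0.05 in controls and -0.07, 0.06, -0.24, -0.09 and -0.25 after procainamide, a difference of -0.08 ± 0.10 (limma adjusted p = 0.712). The groups overlapped in both strains.

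Psme4 ratios were -0.10, -0.09, 0.07 and -0.21 on BN control arrays and 0.12, -0.11, -0.21 and 0.07 on BN procainamide arrays. The SD ratios were 0.12, -0.05, -0.06, 0.07 and 0.11 in controls and 0.05, -0.09, 0.21, -0.15 and -0.17 after procainamide. The groups overlapped throughout, with differences of 0.05 ± 0.10 in BN and -0.07 ± 0.09 in SD (limma adjusted p = 0.762 and 0.754). A second Psme4 probe gave 0.35 in BN and -0.03 in SD and was not called either.

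The 3 catalytic subunit genes of the core were not called in either strain. Psmb5, whose subunit cuts after hydrophobic residues, had ratios of 0.15, 0.03, 0.17 and 0.14 on BN control arrays and -0.09, 0.16, 0.25 and 0.10 on BN procainamide arrays. SD arrays gave -0.17, -0.06, 0.10, -0.08 and -0.02 in controls and -0.02, 0.19, 0.16, 0.02 and 0.32 after procainamide. The groups overlapped, and the differences were -0.02 ± 0.09 in BN and 0.18 ± 0.08 in SD (limma adjusted p = 0.902 and 0.271). In Cy5 alone Psmb5 was called lower in BN (-0.28, limma adjusted p = 0.0406); its Cy3 was 0.26 lower as well.

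Psmb6, whose subunit cuts after acidic residues, had ratios of 0.11, 0.12, 0.05 and 0.31 on BN control arrays and -0.40, 0.08, 0.13 and -0.42 on BN procainamide arrays. Psmb6 in SD was at -0.02, -0.02, 0.06, -0.04 and 0.21 in controls and 0.14, 0.26, 0.30, 0.19 and 0.46 after procainamide. BN procainamide 1 and 4 lay below all BN controls and the other 2 among them. The Psmb6 difference was -0.30 ± 0.12 in BN (limma adjusted p = 0.0879) and 0.23 ± 0.11 in SD (0.292). The strains' responses differed by -0.53 ± 0.16, which passed (limma adjusted p = 0.0444). That call was lost in Cy5 alone (-0.18, limma adjusted p = 0.405) and on the authors' matrix (-0.47, 0.0819). The treated minus control difference of Psmb6 in BN was -0.11 in Cy5 and 0.19 in Cy3. Without BN procainamide 3 Psmb6 was called lower in BN (-0.40, limma adjusted p = 0.0286).

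Psmb7, whose subunit cuts after basic residues, had ratios of 0.00, -0.11, -0.26 and 0.03 on BN control arrays and -0.13, 0.16, 0.11 and -0.23 on BN procainamide arrays. Psmb7 in SD was at -0.05, -0.14, -0.01, -0.08 and 0.00 in controls and 0.10, 0.06, -0.17, 0.17 and 0.24 after procainamide. The groups overlapped, with differences of 0.06 ± 0.10 in BN and 0.13 ± 0.09 in SD (limma adjusted p = 0.71 and 0.508).

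The promoters of Psmb5 and Psmb6 are shown as those of catalytic subunits with a match to the antioxidant response element, the motif class through which Nfe2l1 and Nfe2l2 are known to raise proteasome genes. They run from 120 bases before to the gene start in GRCr8, at chr15:32047380-32047499 (minus strand) and chr10:55737768-55737887 (plus strand), and capitals mark a match to TGACNNNGC, searched on both strands.
Psmb5: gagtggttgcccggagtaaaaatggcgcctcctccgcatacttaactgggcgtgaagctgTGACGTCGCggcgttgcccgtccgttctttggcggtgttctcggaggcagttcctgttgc
Psmb6: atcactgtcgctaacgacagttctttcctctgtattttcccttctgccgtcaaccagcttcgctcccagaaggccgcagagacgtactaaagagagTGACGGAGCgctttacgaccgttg
The matches lie from 60 to 52 bases before the gene start in Psmb5 and from 24 to 16 in Psmb6. In the 250 bases before the start, 7 of 39 member promoters hold this motif (17.9%) and 10.1% of all promoters do. A CCAAT box, searched as CCAAT on both strands, is in 20 of 39 (51.3%) and in 34% of all. The shares for TTCNNNGAA, a STAT site, were 3 of 39 (7.69%) against 7.67%, and for an NF-kB site, searched as GGGA, any 4 bases and CC, 6 of 39 (15.4%) against 16.4%. In Psme2, Psmb5 and Psmb6 the marked match was the only one to any of the 5 motifs. Psma7, Psmd6, Psmd12 and Psmd14 had no promoter entry matched.

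The other subunits of the 20S core showed small differences. In BN all 7 alpha-ring genes had positive differences, from 0.04 for Psma2 to 0.32 for Psma1, with a median of 0.17, and none was called. Under other settings 2 at a time were called higher in BN: Psma3 and Psma4 on the authors' matrix (0.26 and 0.31) and on the software's ratios, Psma1 and Psma5 in Cy5 alone (0.36 and 0.37) and in quantile-normalized Cy5, and Psma3 and Psma5 with median centring (0.39 and 0.32). Of all genes 11.3% were called higher in BN on the authors' matrix and 10.4% on the software's ratios. The shares were 20.7% in Cy5 alone, 22.4% in quantile-normalized Cy5 and 14.1% with median centring. Without BN procainamide 4 Psma4 was called. The smallest limma adjusted p among them was 0.0559, for Psma4 (0.29 ± 0.10), whose treated BN arrays all lay above the controls. In SD the alpha-ring differences ran from -0.09 for Psma3 to 0.32 for Psma2, with Psma5 nearest to the threshold (0.29 ± 0.08, limma adjusted p = 0.0554). The beta-ring differences in BN ran from -0.30 for Psmb6 to 0.45 for Psmb2, with a median of 0.06. In SD all 7 beta-ring differences were positive, from 0.12 for Psmb1 to 0.34 for Psmb2, and none was called.

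Psmb2, a structural beta subunit without an active site, was the core gene that rose in BN. Its ratios were 0.06, 0.11, 0.02 and 0.08 on BN control arrays and 0.25, 0.75, 0.68 and 0.39 on BN procainamide arrays, a difference of 0.45 ± 0.11 (limma adjusted p = 0.00955). In SD they were 0.04, 0.03, 0.26, 0.10 and 0.20 in controls and 0.33, 0.54, 0.66, 0.23 and 0.60 after procainamide, a difference of 0.34 ± 0.10 (limma adjusted p = 0.0803). The BN groups were separate, and in SD procainamide 4 alone lay within the control range.

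Psma8, the alpha subunit known from the testis, was much the dimmest member, with a mean Cy5 of 9.25 log2 in BN controls and 9.24 in SD controls, and its 3 probes disagreed. The probe used gave -0.47 ± 0.21 in BN (limma adjusted p = 0.121) and 0.05 ± 0.19 in SD (0.929). Another gave 0.13 and -0.11. The third was not well above background on any BN procainamide array and is given no size. Without BN procainamide 1 the gene was called lower (-0.61, limma adjusted p = 0.0438).

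Of the 16 members that encode subunits of the 19S cap, 4 rose in BN and none was called in SD. Adrm1, a ubiquitin receptor of the cap that lies outside the set by its symbol, fell in BN (-0.33 ± 0.10, limma adjusted p = 0.0245). Of all genes 8.99% were called higher in BN and 1.42% in SD, so the lack of SD calls is not particular to the cap. Psmc6, an ATPase of the base ring, had ratios of -0.47, -0.37, -0.35 and -0.47 on BN control arrays and -0.03, 0.61, -0.05 and -0.10 on BN procainamide arrays, a difference of 0.52 ± 0.13 (limma adjusted p = 0.00722). The 4 treated arrays lay above the controls and BN procainamide 2 far above the rest. In SD Psmc6 was -0.24, -0.08, -0.09, 0.00 and -0.11 in controls and -0.06, -0.17, -0.05, -0.14 and -0.36 after procainamide, a difference of -0.05 ± 0.11. The strains' responses of Psmc6 differed by 0.57 ± 0.17 (limma adjusted p = 0.0367).

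Psmd2, a large scaffold subunit that binds ubiquitin-like domains, had ratios of -0.13, -0.04, 0.10 and -0.17 on BN control arrays and 0.33, 0.33, 0.15 and 0.34 on BN procainamide arrays. Psmd2 in SD was at 0.09, 0.12, 0.13, 0.11 and -0.01 in controls and 0.11, 0.23, 0.42, -0.01 and 0.01 after procainamide. The groups were separate in BN and overlapped in SD, with differences of 0.35 ± 0.10 (limma adjusted p = 0.0150) and 0.06 ± 0.09 (0.758). Its BN call was lost without BN control 4 (limma adjusted p = 0.0532) and in Cy5 alone (0.14, 0.190).

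Psmd12, a lid subunit, was between -0.22 and -0.06 on BN control arrays and between 0.16 and 0.22 on BN procainamide arrays, with no overlap. Its difference was 0.34 ± 0.07 in BN (limma adjusted p = 0.00246) and 0.00 ± 0.06 in SD (0.982), and the strains' responses differed by 0.33 ± 0.09 (limma adjusted p = 0.0279). Psmd6, another lid subunit, overlapped between the BN groups, with -0.30 to -0.12 in controls and -0.14 to 0.12 after procainamide. Its difference of 0.26 ± 0.09 lay just inside the threshold (limma adjusted p = 0.0482) and was lost without BN control 1, 3 or 4 or BN procainamide 2, 3 or 4 (limma adjusted p from 0.0778 to 0.123).

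The other 5 ATPase genes lay between -0.05 for Psmc4 and 0.23 for Psmc2 in BN, and all 6 lay between -0.05 and 0.12 in SD. The remaining non-ATPase subunits lay between -0.15 for Psmd13 and 0.25 for Psmd7 in BN. Psmd14, the lid deubiquitinase, varied most between arrays, from -0.96 to -0.07 in BN controls and from -1.51 to 0.04 in treated SD rats. Its SD difference of -0.38 ± 0.28 was thus not resolved (limma adjusted p = 0.537). The -1.51 was on SD procainamide 3, whose log2 ratios spread most over probes (SD 0.489). There Psmd8 (-0.86) and Psmg2 (-0.71) were also at their lowest, and Psma6 (0.56) and Psmc3ip (0.63) at their highest. Over the 30 core and cap members together, 5 were called higher in BN (median 0.13) and none was called in SD (median 0.08). The shares of all genes called higher were 8.99% in BN and 1.42% in SD. By subcomplex the SD median was 0.18 for the beta ring, 0.00 for the ATPases and -0.03 for the other cap subunits.

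**Figure D4:**
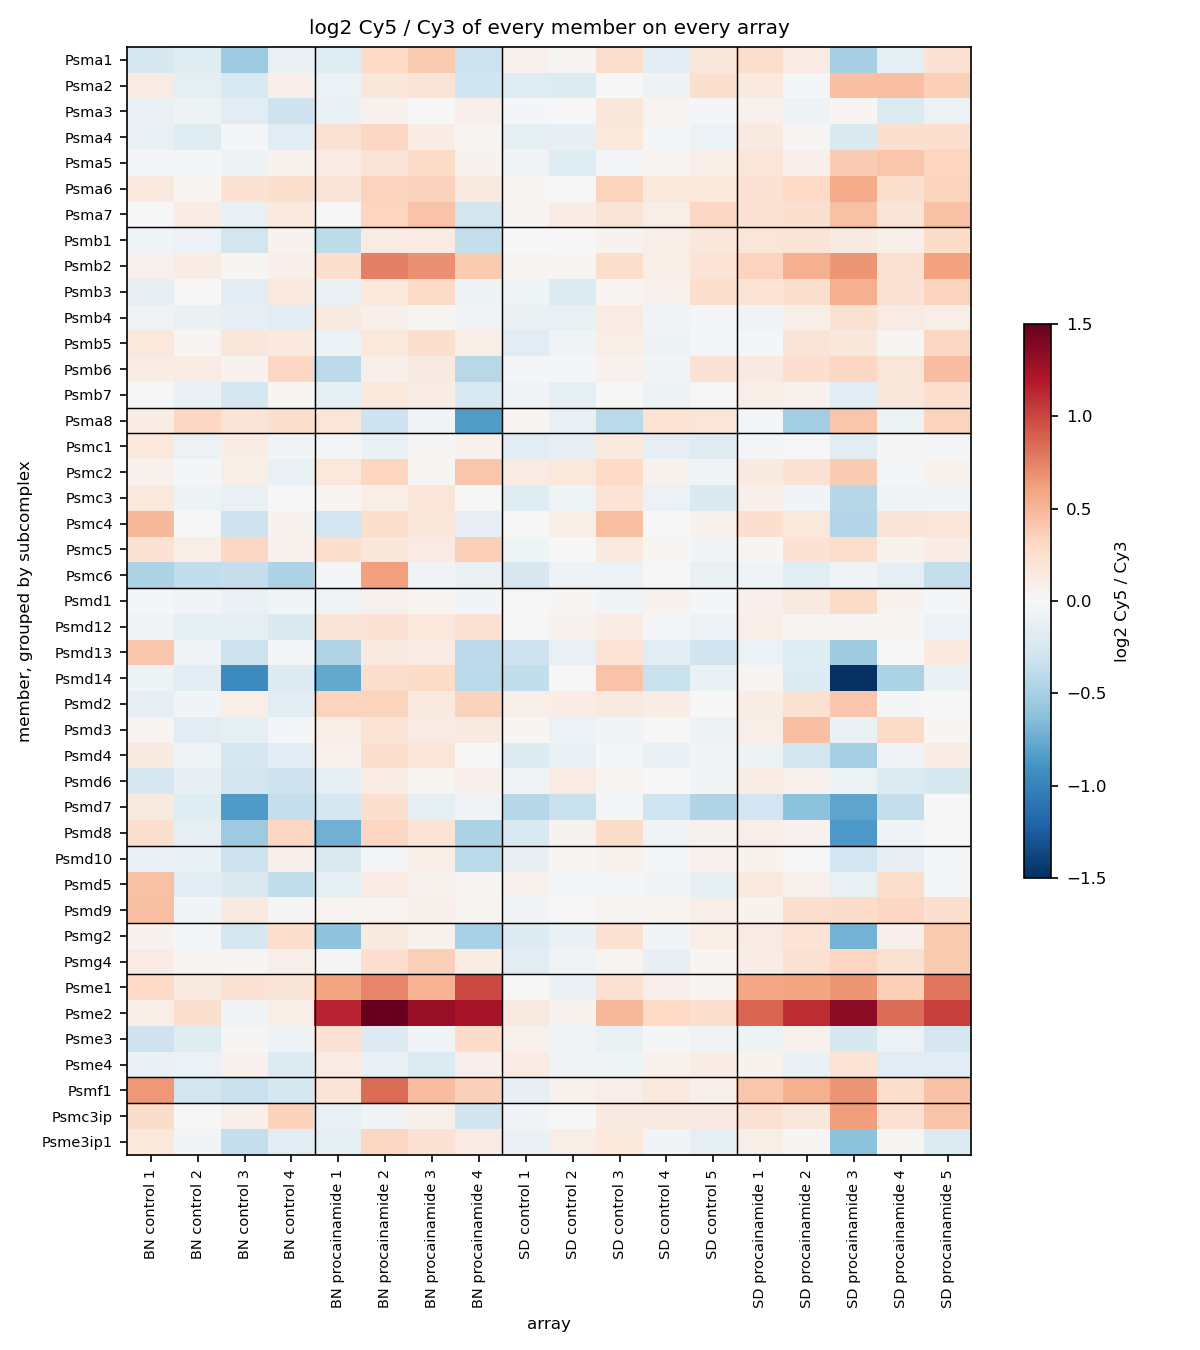
Log2 Cy5 over Cy3 of all 43 genes (rows, grouped by subcomplex) on all 18 arrays (columns, grouped by strain and treatment); red is above and blue below the reference, and values beyond the scale take its end colour. Psme1 and Psme2 form the red block on both sets of procainamide arrays, and Psmd14 is lowest on SD procainamide 3 (-1.51).

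Among inhibitors and assembly factors, Psmf1 was called in BN alone and Psmg4 in SD alone, and neither difference between the strains' responses passed (limma adjusted p = 0.790 and 0.311). Psmf1 had ratios of 0.65, -0.29, -0.34 and -0.27 on BN control arrays and 0.20, 0.84, 0.47 and 0.36 on BN procainamide arrays. In SD they were -0.12, 0.06, 0.09, 0.16 and 0.08 in controls and 0.41, 0.54, 0.66, 0.26 and 0.44 after procainamide. BN control 1 lay among the treated arrays, whereas the SD groups were separate. The Psmf1 difference was 0.53 ± 0.18 in BN (limma adjusted p = 0.0442) and 0.41 ± 0.16 in SD (0.198).

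The BN call of Psmf1 was lost without BN control 2, 3 or 4 or BN procainamide 2, 3 or 4 (limma adjusted p from 0.0638 to 0.142). It was also lost on the authors' matrix (0.39, 0.146). A second Psmf1 probe gave 0.29 ± 0.41 in BN and -0.02 ± 0.37 in SD. Within slide 1 alone the SD difference of Psmf1 was called (0.48, limma adjusted p = 0.0440).

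Psmg4, a chaperone of alpha-ring assembly, had ratios of -0.16, -0.05, 0.04, -0.12 and 0.03 in SD controls and 0.11, 0.23, 0.32, 0.22 and 0.39 in treated SD rats. In BN they were 0.13, 0.03, 0.03 and 0.09 in controls and 0.02, 0.25, 0.36 and 0.11 after procainamide. The SD groups were separate and the BN groups overlapped, with differences of 0.31 ± 0.08 in SD (limma adjusted p = 0.0425) and 0.12 ± 0.09 in BN (0.365). Its SD call was lost in 8 of the 10 fits that left out 1 SD array (limma adjusted p from 0.0596 to 0.112; it stayed without SD control 3 or SD procainamide 1). A second probe gave 0.16 ± 0.11 in SD (limma adjusted p = 0.496).

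The other assembly chaperone genes, Psmg2 for the core and Psmd5, Psmd9 and Psmd10 for the base, were not called, with differences from -0.23 to 0.09 in BN and from -0.07 to 0.21 in SD. The 2 probes of Psmd9 differed in sign in SD (0.21 and -0.16). Psmc3ip, a partner of an ATPase subunit known from meiotic recombination, was -0.27 ± 0.11 in BN and 0.26 ± 0.10 in SD, neither called (limma adjusted p = 0.0935 and 0.178). The strains' responses of Psmc3ip differed by -0.53 ± 0.15, which passed (limma adjusted p = 0.0289).

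Across the members, the test of the difference between the strains' responses called Psmc6 and Psmd12 as higher and Psmb6 and Psmc3ip as lower in BN than in SD. Over all genes 3.15% were called higher and 7.54% lower, against 4.65% of the members each way. With scan day as a term Psmb6 was at -0.41, Psmc3ip at -0.55, Psmc6 at 0.35 and Psmd12 at 0.22, and none passed (limma adjusted p from 0.836 to 0.856). That fit called 0% of all genes either way, so the lost calls are not particular to these 4. Without BN control 1 the calls were 1 higher and 0 lower, and without SD control 1 2 higher and 0 lower. Shares of all genes are not given here for the fits without 1 array. All 4 calls were lost without BN control 4, without SD control 2 or without SD procainamide 5. Of the 18 fits that each left out 1 array, Psmb6 lost its call in 14, Psmc6 in 9, Psmc3ip in 6 and Psmd12 in 4.

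The control rats of the strains were compared in Cy5 alone, since their references are different RNA. In BN controls Psme1 (0.31 ± 0.09), Psmb5 (0.30 ± 0.10), Psmc5 (0.26 ± 0.06) and Psmd9 (0.23 ± 0.08) were called higher than in SD controls. Called lower were 9 members, among them the alpha-ring genes Psma1 (-0.42 ± 0.11), Psma5 (-0.20 ± 0.07) and Psma7 (-0.26 ± 0.08), and Psmb3, Psmc6, Psmd6, Psmd10, Psme3 (-0.29 ± 0.08) and Psme2 (-0.25 ± 0.07). The 2 genes of the PA28 ring thus lay on opposite sides of SD, Psme1 higher (limma adjusted p = 0.0114) and Psme2 lower (0.00694).

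These counts are 9.30% and 20.9% of the members, where 16.3% of all genes were called higher and 20.5% lower. With scan day as a term no member was called either way, where 0.698% of all genes were called higher and 0.786% lower, and Psme1 was at -0.03. The strains' controls were on different slides, and strain and slide cannot be told apart. Without BN control 1 the counts were 3 higher and 13 lower, and without SD control 1 2 higher and 9 lower. The shares of all genes called in these fits are not given here, so a change in the counts may follow all genes. Of the 9 fits that each left out 1 control array, Psmd9 and Psmd10 lost their call in 6 each, Psmc6 in 5, Psma5 in 4, Psmb5 in 2 and Psma7 in 1. Psmc6, Psmd6 and Psme2 were called lower in BN controls and higher in treated BN rats; both comparisons use the same 4 BN control arrays.

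The immunoproteasome genes, left out of the set by its definition, are given for comparison with the catalytic genes they replace. Psmb8, the partner of Psmb5, rose in BN (0.62 ± 0.15, limma adjusted p = 0.00604) and was not called in SD (0.16 ± 0.13, 0.575). Psmb9, the partner of Psmb6, rose 2.14-fold in BN and 1.89-fold in SD (limma adjusted p = 3.15e-04 and 0.00367). Psmb10, the partner of Psmb7, rose 1.70-fold in BN and 1.36-fold in SD (limma adjusted p = 2.21e-04 and 0.0229). These changes are of Cy5 over Cy3. In Cy5 alone the BN differences were 0.55 for Psmb8, 0.67 for Psmb9 and 0.21 for Psmb10. The SD differences in Cy5 were 0.12, 0.41 and 0.27. Psmb10 in BN thus differed more in Cy3, which was 0.56 lower, than in Cy5.

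Set against its partner on the same array, Psmb9 minus Psmb6 was -0.35 to 0.16 in BN controls and 0.99 to 1.41 in treated BN rats, and -0.24 to 0.20 and 0.41 to 1.01 in SD. Those groups were separate in both strains. Psmb8 minus Psmb5 overlapped in both, as did Psmb10 minus Psmb7 (-0.13 to 0.48 against 0.43 to 1.3 in BN, 0.01 to 0.21 against 0.16 to 0.71 in SD). Psme2 minus the median of the 14 core subunits was 0.02 to 0.28 in BN controls and 1.09 to 1.35 after procainamide, and 0.09 to 0.38 and 0.65 to 1.08 in SD. Psme1 minus that median was separate in SD (-0.13 to 0.11 against 0.17 to 0.49) and overlapped in BN (0.13 to 0.33 against 0.30 to 1.05). These are descriptions, without a test. As in the PA28 genes, Cy3 of Psmb9 was lower on treated arrays in both strains (by 0.43 and 0.51) and that of Psmb10 by 0.56 in BN.

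**Figure D5:**
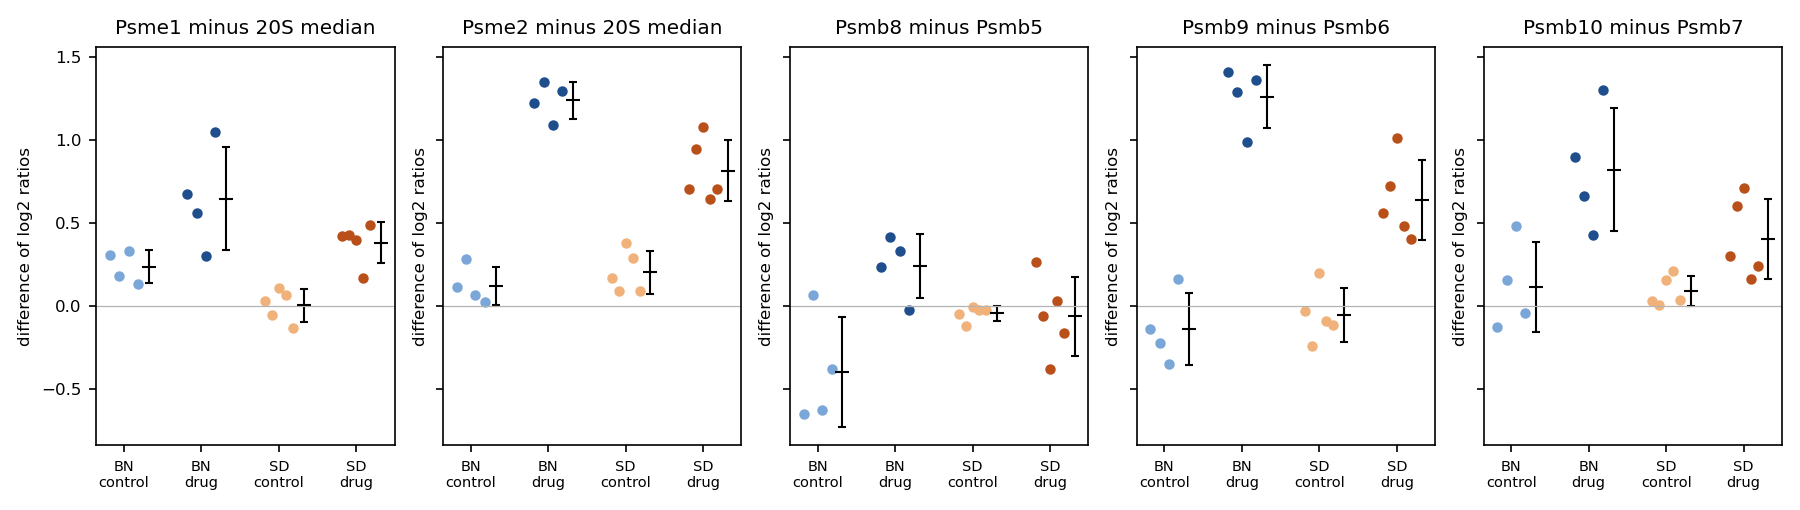
Difference of log2 ratios on the same array between a PA28 gene and the median of the 14 core subunits, and between each immunoproteasome gene and the catalytic gene it replaces; points are arrays, the black mark is the mean with SD, and drug means procainamide. Psme2 minus the core median and Psmb9 minus Psmb6 separate the treated from the control arrays in both strains.

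Other genes of the pathway were read from lists. Of the 86 tested, 12 (14%) rose and 1 (1.16%) fell in BN, where 8.99% and 13.8% of all genes did, and 2 (2.33%) rose in SD, where 1.42% of all genes did. The counts of the single lists stand against the same shares. In BN the rises included the ubiquitin-activating enzyme gene Uba1 (0.45 ± 0.11) and Uba3 (0.42 ± 0.10), which activates NEDD8, 2 of 8 in that list. Of 10 genes of p97, the unfolding ATPase upstream of the proteasome, and its cofactors, 3 rose in BN: Vcp itself (0.38 ± 0.10), Ubxn7 (0.76 ± 0.26) and Nsfl1c (0.22 ± 0.08). Of 21 ubiquitin-conjugating enzyme genes, 3 rose in BN, Ube2v1 (0.34 ± 0.11), Ube2d3 (0.27 ± 0.09) and Ube2b (0.27 ± 0.09). Ube2l6, which conjugates the interferon-induced modifier ISG15, rose in SD (0.84 ± 0.21) and was at 0.25 ± 0.23 in BN, not called.

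Of 9 cytosolic peptidase genes, a class that trims proteasome products, 3 rose in BN, Lap3 (0.65 ± 0.13), Nln (0.32 ± 0.08) and Npepps (0.30 ± 0.09). Lap3, a leucine aminopeptidase, also rose in SD (0.47 ± 0.11). Of 12 associated, assembly and docking factors, Zfand2a rose in BN (0.36 ± 0.10) and Adrm1, a ubiquitin receptor of the 19S cap, fell by 0.33 ± 0.10. None of 9 regulators of proteasome genes was called in either strain; Nfe2l1 was at 0.20 and Nfe2l2 at 0.29 in BN. None of 17 cytosolic chaperone genes was called in either strain, with medians of 0.09 in BN and 0.00 in SD.

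Some markers of blood cells and of other tissue differed with treatment too, and their part in the proteasome results was not tested. Their counts stand against the shares of all genes called. These were 8.99% higher and 13.8% lower in BN, and 1.42% and 1.76% in SD. In BN the platelet markers fell in 4 of 7, and their summed Cy5 was 16.44 to 16.91 log2 in controls and 16.09 to 16.62 after procainamide. The eosinophil and basophil markers fell in 4 of 8 and rose in 1 (14.83 to 15.93 against 14.66 to 15.21), and connective, muscle and gland markers fell in 5 of 11 (17.50 to 17.70 against 16.99 to 17.31). Plasma cell markers rose in 3 of 6 (16.38 to 16.89 against 16.83 to 17.36), neutrophil markers in 2 of 10 (16.34 to 16.88 against 16.48 to 17.58) and monocyte markers in 2 of 7 (17.54 to 17.87 against 17.76 to 18.27). In SD connective, muscle and gland markers fell in 3 of 11 (17.73 to 18.02 against 17.33 to 17.60) and proliferating-cell markers rose in 2 of 6 (16.12 to 16.35 against 16.40 to 16.66). The NK cell marker Nkg7 was 1 of 8 in its list to rise, in both strains (0.72 ± 0.12 in BN, limma adjusted p = 6.12e-04; 0.49 ± 0.11 in SD, 0.0227). Across the 8 NK markers the differences ran from -0.80 to 0.72 in BN (median 0.21). In SD they ran from -1.10 to 0.49 (median -0.11). The summed Cy5 of the NK markers was 16.17 to 16.57 in BN controls and 16.51 to 16.87 after procainamide, and overlapped in both strains. In BN the T cell marker Trat1 rose (0.97 ± 0.28), 1 of 10 (10%). The erythroid marker Klf1 fell there (-0.77 ± 0.24), 1 of 9 (11.1%). Both counts are near the shares of all genes. Among neutrophil markers the BN differences ran from -1.01 to 1.36, and among monocyte markers from -0.21 to 1.29. No B cell marker was called in either strain.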

How the data were processed

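The authors deposited Agilent scanner output, made with Feature Extraction 10.7.1.1 per the file headers, with median spot and background intensities, processed intensities and log10 ratios, and a matrix of log2 ratios. That matrix does not state its scale, centring or direction; its columns followed the scanner's ratios, taken to log2, with slope 1 and had medians from -0.0140 to 0.0653, and its probe filter stays unknown. Here median intensities were corrected with normexp (offset 50) and loess in R 4.3.3 with limma 3.58.1, control spots at weight 0 and flagged spots left out. RefSeq accessions gave 18355 of 30367 probes 1 symbol. Tests covered the 26446 probes whose Cy5 was well above background on 4 or more of 18 arrays. A gene is its brightest probe. Each comparison is a contrast of 4 group means over 18 arrays, moderated by eBayes, 2-sided, with Benjamini-Hochberg adjustment at 0.05. Controls of the strains were compared by log2 Cy5, normalized by loess and Aquantile. The fit was tested on simulated data. Promoters are RefSeq's, GRCr8. The members and lists were chosen with earlier results of these data known. Array values are given for Psmb5, Psmb6, Psmb7, Psme1 to Psme4 and, in each strain, up to 6 called members with the largest rises and 3 with the largest falls. Pathway lists give up to 3 called genes each. Replicate numbers did not pair arrays. The alternatives of the closing section changed background correction, normalization, channel, filter, probe choice, batch terms and arrays.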

Additional observations from a re-analysis of the deposited data

Results flagged for a closer look

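In 48 sets of 4 or 5 arrays, 3 had an array set apart from its group, about as many as chance gives at 1 in 20. Psmc6 was 0.61 on BN procainamide 2 and -0.10 to -0.03 on the other treated BN arrays. Psmd2 was 0.15 on BN procainamide 3, the others being at 0.33 to 0.34. Psmf1 was 0.65 on BN control 1, with -0.34 to -0.27 on the other BN controls.

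The responses of the strains differed by limma's test in 4 genes: Psmc6 (0.57, BN minus SD), Psmd12 (0.33), Psmb6 (-0.53) and Psmc3ip (-0.53). None of the 4 passed with scan day as a term (-0.55 to 0.35), with array brightness (-0.53 for Psmb6, -0.29 for Psmc3ip, 0.33 and 0.21 for Psmc6 and Psmd12) or with the replicate number, which leaves the differences as they are. Of all genes 0% were called with scan day, 0% higher and 0.0367% lower with brightness, and 0.823% and 3.81% with the replicate number.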

How the results depend on the processing

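Of 297 recomputed counts and medians, 231 kept within their margin, 1.5 times for a count and 0.0683 for a median, the SD of array medians within groups. Shares in brackets are of all genes called in the same direction. Members called higher in BN numbered 13 with median centring (14.1%; median 0.27, all genes 0.03) and with quantile-normalized Cy5 (22.4%), 5 with the replicate block (4.96%), 3 with the BN arrays alone (3.64%) and 1 with scan day (0.455%) or brightness (1.11%). Called lower in BN were 2 in Cy5 alone (16.3%) and in quantile-normalized Cy5 (15.3%), and 1 with the mean of probes (13.9%), Psma8, whose mean takes in the probe not above background. Members called higher in SD numbered 5 with median centring (1.03%), 1 with the replicate block (0.308%) and 1 in quantile-normalized Cy5 (1.70%); the SD median was 0.0270 in Cy5 alone and 0.0135 quantile-normalized (all genes -0.0243 and -0.0218). Of the response difference, higher and lower calls were 0 and 1 on the software's ratios (2.91% and 6.27%) and on the authors' matrix (3.09% and 5.70%). They were 0 and 0 with scan day (0% each way), brightness (0% and 0.0367%; median -0.0654, all genes -0.0291) or the replicate block (0.823% and 3.81%). Lower calls were 0 with median centring (8.18%), 1 with slide as a random block (6.80%) and 4 in quantile-normalized Cy5 (13.4%). Higher calls were 9 in Cy5 alone (17.8%; median 0.16, all genes 0.11) and in quantile-normalized Cy5 (19.3%; 0.15, all genes 0.13). Between controls both counts were 0 with scan day (0.698% and 0.786%) or brightness (4.74% and 5.48%) and 1 with slide as a random block (8.06% and 8.03%). Quantile-normalized Cy5 was chosen after seeing the data. Among values called before or after the change, signs turned for Psme1 in BN (-0.0263 in Cy5 alone, -0.0730 quantile-normalized), for Psma5 in the response difference (0.25 and 0.30, from -0.11), and for Psme1 between controls with scan day (-0.0337). Another 79 values of 28 results, called in neither fit, changed sign. For the fits without 1 array the shares of all genes are not given. Leaving out 1 array gave 5 (without BN control 4) to 8 higher and 0 to 1 lower in BN (medians 0.07 to 0.14). It gave 2 to 4 and 0 in SD (0.08 to 0.11), 0 to 3 and 0 to 2 for the response difference (-0.04 to 0.06), and 2 (without SD control 1) to 4 and 6 to 13 between controls (-0.13 to -0.08). With the replicate block Psmd2, Psmd6 and Psmf1 lost their BN call, and Psme1 (adjusted p = 0.0581) and Psmg4 (0.154) their SD call in limma. Correlations of same-numbered arrays ran from -0.523 to 0.129. The causes were not tested. The response difference already uses all arrays, and the controls share no numbers to block.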
